A study of Mus musculus with 60 samples.

Results

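Among 20 RNA-seq libraries from prefrontal cortex of lithium-treated mice, 3 held far more transcript of striatal neuron genes than the other 17. They were replicate 1 of the HT lithium females, replicate 2 of the WT lithium females and replicate 2 of the WT lithium males, and they are called the striatum-rich libraries here. They were chosen by their values of Ppp1r1b and Pde10a, so the contrast of these 3 with the other 17 is a description and carries no test. The whole series held 60 libraries, 5 in each of 12 groups by genotype, treatment and sex. HT mice carried the K228E allele on 1 copy of Tbr1 (Tbr1+/K228E) and WT mice carried none, all on C57BL/6J. Lithium, fluoxetine or vehicle reached the pups through their mothers' milk from postnatal day 3 to 24, for 3 weeks, and cortex was taken at day 25. Values are size-factor-scaled reads per gene, and the lithium libraries held 24388174 to 36156697 reads. The labels name no litter, dam or dissection batch, so every p-value below measures how much these particular samples spread, and pups may share a dam.

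The striatum lies beneath the frontal cortex, across the white matter. Nearly all of its neurons are medium spiny neurons (MSN), inhibitory projection neurons that answer to dopamine. Those of the direct pathway carry the D1 receptor and the peptides substance P and dynorphin, and those of the indirect pathway carry the D2 receptor, an adenosine receptor and enkephalin. Both kinds are rich in DARPP-32, the phosphatase regulator encoded by Ppp1r1b, and in PDE10A, the cyclic nucleotide phosphodiesterase encoded by Pde10a. Cortical projection neurons, by contrast, use glutamate. Cortex also expresses many of these genes at a lower level, so a gene can be read in every library and still be far higher in striatum.

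Values of the 3 striatum-rich libraries are given throughout in the order HT female 1, WT female 2 and WT male 2, against the lowest, the median and the highest of the other 17 lithium libraries. Ppp1r1b (ENSMUSG00000061718, GRCm38 chromosome 11, 98348404 to 98357796) stood at 5190, 5643 and 5337 in the striatum-rich libraries, against 942, 1691 and 2396 in the other 17. Pde10a (ENSMUSG00000023868, chromosome 17, 8525372 to 8986648) stood at 6429, 6797 and 5770 in the striatum-rich libraries, against 1387, 1612 and 2280 in the other 17. The lowest of the 3 was thus above the highest of the 17 for both genes. The mean log2 value of both genes, called the striatal index, was 12.50, 12.60 and 12.44 in the striatum-rich libraries. The next lithium library was HT female 3 at 11.16, and none lay between.

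Outside lithium, HT vehicle males 4 and 5 had an index of 12.19 and 12.01, and the other 38 vehicle and fluoxetine libraries had 9.42 to 11.28. These 2 libraries bear on every contrast of lithium with vehicle in HT mice, and values without them are given below. Tbr1, which encodes a transcription factor of deep-layer cortical neurons and carries the allele, did not set the 3 libraries apart. It stood at 4344, 3772 and 3793 in them, against 1862, 3519 and 5241 in the other 17 lithium libraries. Slc17a7, the vesicular glutamate transporter of cortical projection neurons, was at 49739, 52439 and 52518 in the striatum-rich libraries and at 36860, 50820 and 58973 in the other 17. The general projection neuron marker Slc17a7 thus lay inside the range of the other libraries in all 3. Whether striatal tissue entered the dissections was not tested.

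**Figure D1:**
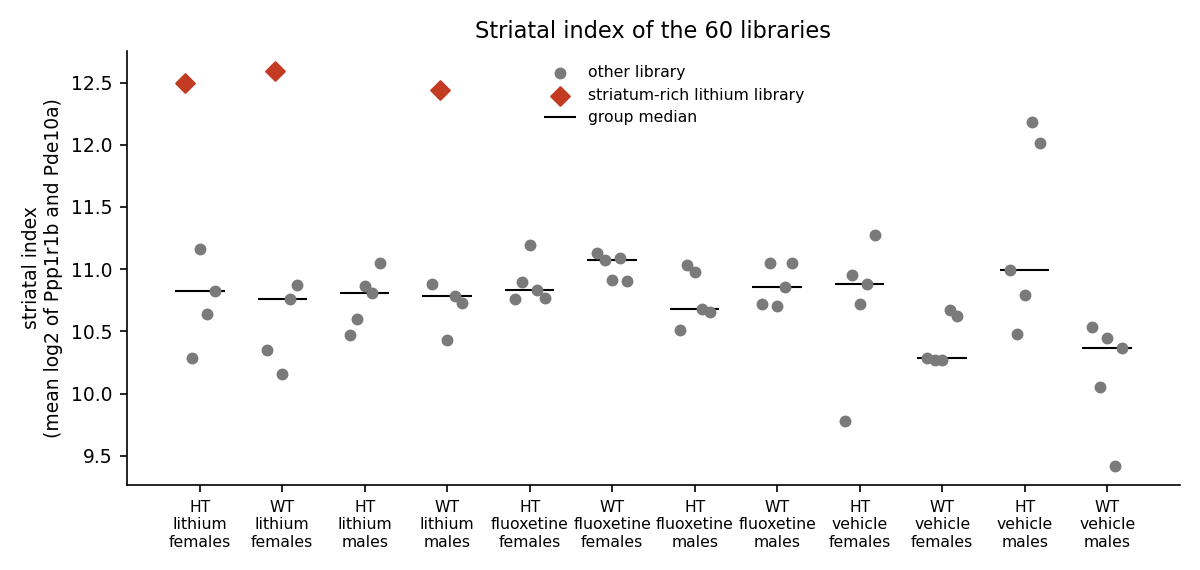
The striatal index (mean log2 of Ppp1r1b and Pde10a, vertical axis) of each of the 60 libraries by group, with red diamonds for the 3 striatum-rich lithium libraries and lines at the group medians. The diamonds sit at 12.44 to 12.60, HT vehicle males 4 and 5 at 12.19 and 12.01, and all others at 11.28 or below.

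Promoter sequence is shown for Drd2, Gpr6 and Rgs9. These genes were both among the highest in the 3 libraries and called in the regression on the striatal index described below. Others that met both conditions and had a promoter, Drd1, Tac1, Ecel1 and Ccdc187 among them, are not shown. Each line is the 250 bases directly before the gene's start in RefSeq (GRCm38.p6), 5′ to 3′ on the gene's strand, in lower case. The windows are chr9:49340153-49340402 on the plus strand for Drd2, chr10:41072291-41072540 on the minus strand for Gpr6 and chr11:109298182-109298431 on the minus strand for Rgs9. Capitals mark matches on either strand to the 4 motifs searched. These were the TATA box core TATAAA, the full cyclic AMP response element TGACGTCA, the pentamer CCAAT and the GC box GGGCGG.
Drd2: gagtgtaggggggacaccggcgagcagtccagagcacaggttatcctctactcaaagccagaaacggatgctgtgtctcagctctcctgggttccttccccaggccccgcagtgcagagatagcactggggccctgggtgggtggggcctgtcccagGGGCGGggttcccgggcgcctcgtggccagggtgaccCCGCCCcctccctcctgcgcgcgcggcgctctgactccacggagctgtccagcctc
Gpr6: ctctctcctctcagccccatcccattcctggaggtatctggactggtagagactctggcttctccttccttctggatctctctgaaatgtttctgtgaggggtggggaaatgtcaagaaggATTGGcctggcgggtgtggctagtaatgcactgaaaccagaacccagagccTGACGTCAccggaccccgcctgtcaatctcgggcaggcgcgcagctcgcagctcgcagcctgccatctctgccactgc
Rgs9: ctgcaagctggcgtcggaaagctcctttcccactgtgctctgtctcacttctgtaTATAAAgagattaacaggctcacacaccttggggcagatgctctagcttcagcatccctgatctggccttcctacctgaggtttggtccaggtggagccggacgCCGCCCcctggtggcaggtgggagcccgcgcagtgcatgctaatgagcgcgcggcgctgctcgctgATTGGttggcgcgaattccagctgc

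The Drd2 window held GC boxes at positions 158 and 195, counted from 1 at the 5′ end of the window, and none of the other 3 motifs. The Gpr6 window held the cyclic AMP response element at position 173 and CCAAT on the opposite strand at 122. The Rgs9 window held TATAAA at position 56, with a GC box at 160 and CCAAT at 226 on the opposite strand. Of 32851 promoter windows of the same length, 12.4% held TATAAA, 1.55% TGACGTCA, 33.8% CCAAT and 32.7% GGGCGG. No motif of the 4 was thus present in all 3 windows. The GC box was in those of Drd2 and Rgs9, and CCAAT in those of Gpr6 and Rgs9. A match describes letters, not a bound site. Of the 20 genes highest in the 3 libraries, 13 were matched to a promoter.

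Across the 17781 genes kept, 278 were higher in all 3 striatum-rich libraries than in any of the other 17 (1.56%), and 128 were lower than in any of the 17 (0.72%). Of the 278, 262 were protein-coding and 76 exceeded their group medians by at least 1 log2 unit at the median of the 3. The difference used here is that of a library from the median of the other libraries of its own genotype, treatment and sex, on the log2(value + 1) scale. The median difference was 0.65 over the 278 genes and −0.26 over the 128, of which 8 reached −1. The displacement was therefore much larger on the high side. Among the 278, 50 belonged to the lists of cell type and pathway genes used here, with striatal neurons and oligodendrocytes the most frequent.

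The D2 receptor gene Drd2 (ENSMUSG00000032259, chromosome 9, 49340627 to 49408177) ranked highest by its smallest difference among the 3, of the genes with a mean of at least 50 over the lithium libraries. It stood at 584, 603 and 524 in the striatum-rich libraries, against 16.5, 47.8 and 86.6 in the other 17, with a ratio of means of 11.6. Adora2a, the adenosine receptor gene that marks the same neurons, stood at 962, 941 and 896 in the striatum-rich libraries and at 95.6, 150 and 202 in the other 17. Neither gene's groups overlapped. Gpr6, an orphan receptor of indirect-pathway neurons, was at 233, 277 and 251 in the striatum-rich libraries, against 26.4, 56.3 and 76.8 in the other 17. Penk, the precursor of enkephalin, was at 4351, 4698 and 4677 in the striatum-rich libraries, against 809, 1547 and 2713 in the other 17. Of the 6 genes listed for the indirect pathway, 5 lay above all 17, against 1.56% of all genes, and the list's median difference was 1.81, against −0.003 over all genes. The exception was Sp9, a transcription factor of developing indirect-pathway neurons that also serves olfactory bulb interneurons. It stood at 327, 222 and 262 in the striatum-rich libraries and at 63.7, 344 and 820 in the other 17.

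Direct-pathway genes were mixed, with 5 of 8 above their group medians in all 3 libraries and 2 below in all 3, Eya1 and Sfxn1. Of all 17781 genes, 3102 were above in all 3 and 3124 below in all 3, so the 2 below are not far from that share. Drd1, the D1 receptor gene (chromosome 13, 54051183 to 54055705), was at 883, 1049 and 1015 in the striatum-rich libraries and at 69.2, 185 and 328 in the other 17. Tac1, the precursor of substance P, was at 986, 1247 and 1161 in the striatum-rich libraries and at 193, 353 and 510 in the other 17. Both were separated from the 17. Pdyn, the precursor of dynorphin, was at 901, 1201 and 1054 in the striatum-rich libraries and overlapped the other 17, which reached 1197. Of the 8 direct-pathway genes, 3 lay above all 17, against 1.56% of all genes, the third being the muscarinic receptor gene Chrm4. Eya1, a transcriptional coactivator, lay below all 17, at 269, 261 and 246 in the striatum-rich libraries against 281, 315 and 379 in the other 17. The list's median difference was 0.52.

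Of the genes shared by both kinds of MSN, 17 of 18 lay above all 17 other libraries, against 1.56% of all genes. The list's median difference was 1.19. Those above include Ppp1r1b and Pde10a, which chose the 3 libraries, so these 2 add no support to the count. They also include Ido1, at 44.2, 30.9 and 46.6 in the striatum-rich libraries and at most 10.3 in the other 17. Outside lithium Ido1 reached 10 only in HT vehicle males 4 and 5. Ido1 thus passed the filter mainly through libraries where it was high, and its separation is no support. Rgs9, a regulator of G protein signalling downstream of dopamine receptors, was at 1746, 2020 and 1954 in the striatum-rich libraries, against 176, 333 and 521 in the other 17. Scn4b, a sodium channel beta subunit, was at 4382, 4921 and 4544 in the striatum-rich libraries, against 244, 1201 and 2104 in the other 17. Genes with a high cortical level separated too, by smaller ratios. Adcy5, the main striatal adenylyl cyclase, was at 8259, 9242 and 8575 in the striatum-rich libraries, against 3986, 5078 and 6001 in the other 17. Pde1b, a calmodulin-dependent phosphodiesterase, was at 5752, 6367 and 5998 in the striatum-rich libraries, against 3421, 3630 and 3994 in the other 17. Only Dclk3, a kinase gene, overlapped, at 1518, 1804 and 1650 in the striatum-rich libraries against up to 1767 in the other 17. The summed level of the 18 genes was 62504 to 68199 in the striatum-rich libraries and 25457 to 40104 in the other 17, so the sums did not overlap.

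Transcription factors that are near silent in cortex were plainly read in the 3 libraries. Six3, a homeobox gene of developing striatum, was at 158, 208 and 173 in the striatum-rich libraries, against 0, 3.39 and 9.43 in the other 17. Isl1, a LIM homeobox gene of direct-pathway and cholinergic neurons, was at 38.6, 79.2 and 54.2 in the striatum-rich libraries and had a median of 0 and a highest value of 4.05 in the other 17. Both genes stayed below the minimum of 10 in all of the other 17. Isl1 reached 10 in only 6 of the 60 libraries, the 3 striatum-rich ones, HT vehicle males 4 and 5 and HT vehicle female 5. Six3 reached 10 in 9 of the 60, these 6 among them. Both genes thus passed the filter only through libraries where they were high, and their separation is no support. Rarb, a retinoic acid receptor gene, was at 557, 607 and 581 in the striatum-rich libraries, against 162, 204 and 258 in the other 17. Rxrg and Zfp503 were also above all 17, while Foxp1, Meis2 and Ikzf1 overlapped. Markers of cholinergic neurons, which in striatum are interneurons, behaved alike. Chat, the acetylcholine-synthesising enzyme, was at 62.7, 72.0 and 62.9 in the striatum-rich libraries, against 4.65, 13.5 and 26.4 in the other 17. Slc5a7, the choline transporter gene, was at 113, 135 and 150 in the striatum-rich libraries, against 17.1, 32.9 and 50.1 in the other 17. The vesicular transporter gene Slc18a3 was the third of 3 measured of 6 listed. All 3 lay above the 17, against 1.56% of all genes.

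Of the compartment lists, 0 of 4 striosome genes and 1 of 2 measured ventral striatum genes stood above all 17, against 1.56% of all genes. That gene was Cartpt, which encodes a neuropeptide of the nucleus accumbens, at 215, 221 and 215 in the striatum-rich libraries against 54.9, 130 and 203 in the other 17. Several genes outside the lists were among the 20 highest. Oprk1, the kappa opioid receptor gene, was at 398, 412 and 432 in the striatum-rich libraries, against 59.6, 116 and 295 in the other 17. Nexn, which encodes an actin-binding protein, was at 149, 160 and 163 in the striatum-rich libraries, against 26.7, 39.9 and 56.2 in the other 17. Ecel1, an endopeptidase-like gene of neurons, was at 239, 285 and 287 in the striatum-rich libraries, against 41.3, 58.8 and 116 in the other 17. Each of these was clear of the 17 libraries. Dlk1, an imprinted gene for a transmembrane protein, was not, with 115, 168 and 142 in the striatum-rich libraries and up to 174 in the other 17. Ccdc187 barely was, at 301, 495 and 402 in the striatum-rich libraries against up to 299 in the other 17.

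**Figure D2:**
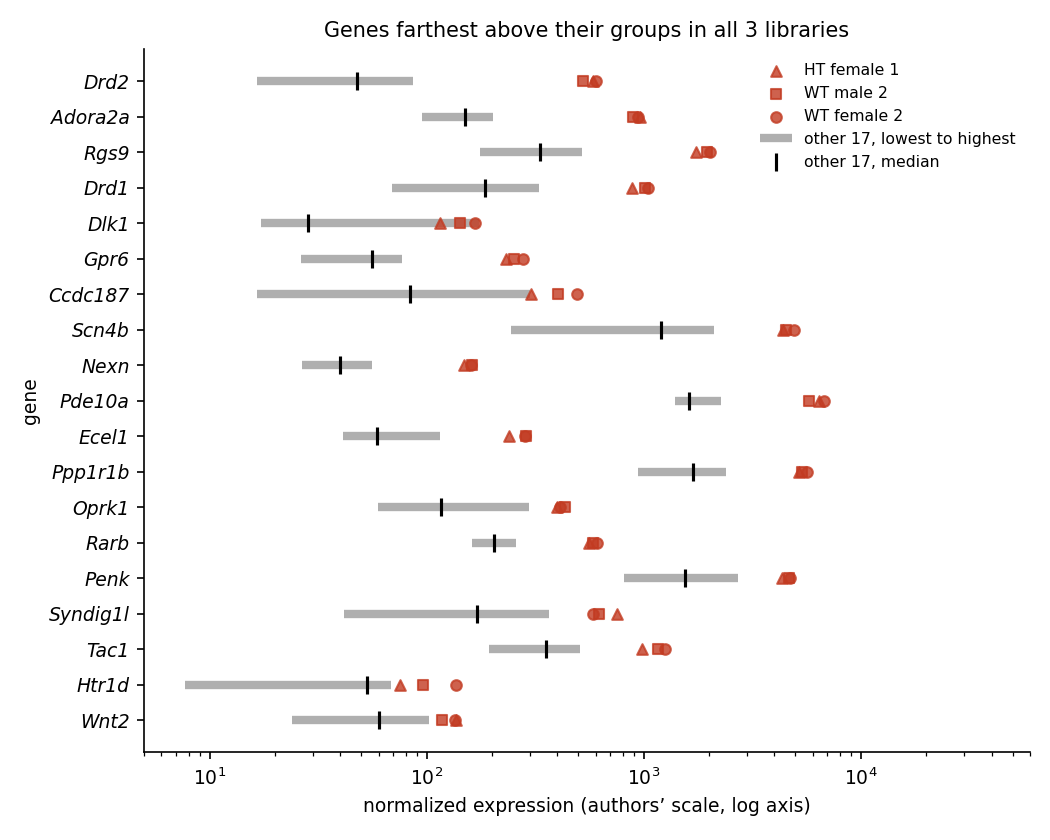
Normalized expression (log axis) of 19 of the 20 genes farthest above their group medians in all 3 striatum-rich libraries (red symbols), among genes with a lithium mean of at least 50, with grey bars from the lowest to the highest of the other 17 lithium libraries and ticks at their median. For Drd2 the red symbols sit at 524 to 603 and the bar ends at 86.6, while for Dlk1 the symbols lie within the bar.

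Some genes listed for other cell types were high along with the striatal genes. All 10 oligodendrocyte genes lay above all 17 others, against 1.56% of all genes, with a median difference of 0.84. Mbp, the myelin basic protein gene, was at 91412, 73447 and 80351 in the striatum-rich libraries, against 13407, 46471 and 69673 in the other 17. Opalin, a myelin membrane protein gene, was at 498, 483 and 478 in the striatum-rich libraries, against 103, 242 and 353 in the other 17. The summed level of the 10 genes was 179779 to 209501 in the striatum-rich libraries and 37511 to 161443 in the other 17, so these sums did not overlap either. In bulk tissue, more cells of a type and more RNA per cell cannot be told apart. Genes of cortical layer 6 and subplate were high as well, with a median difference of 0.44. In all 3 libraries 8 of 10 were above their group medians, against 3102 of all 17781 genes. The mean of this list was 9.69 to 9.84 log2 units in the striatum-rich libraries and at most 9.57 in the other 17, so the list means did not overlap. Taken singly, 2 of the 10, Foxp2 and Tle4, lay above all 17, against 1.56% of all genes. Foxp2 was also called in the regression on the striatal index described below. Which cells carried the transcripts of this list was not tested. Foxp2 was at 547, 684 and 599 in the striatum-rich libraries, against 139, 315 and 416 in the other 17. Clic6, a channel-like protein gene on the choroid plexus list, was the only one of the 6 on that list to stand clear, at 122, 154 and 172 in the striatum-rich libraries against up to 69.0 in the other 17.

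Genes of the brain's coverings and of immune cells were on the low side. All 6 meningeal genes were below their group medians in all 3 libraries, as were 3124 of all 17781 genes. The meningeal list had a median difference of −0.58, although none of its genes lay below all 17, against 0.72% of all genes. Of 8 microglial genes, 7 were below their group medians in all 3, and P2ry12, a purinergic receptor gene of resting microglia, lay below all 17. Mrc1, the mannose receptor gene of border macrophages, was at 113, 114 and 96.5 in the striatum-rich libraries, against 164, 247 and 403 in the other 17. F13a1, a coagulation factor subunit gene of the same macrophages, was at 49.8, 65.9 and 41.2 in the striatum-rich libraries, against 77.8, 126 and 217 in the other 17. Both lay below all 17, as did Col8a2, a collagen gene, and Slc26a7, an anion exchanger gene, among the 10 lowest genes. The other 6 of the 10 lowest overlapped the 17. Igf2, a growth factor gene of meninges and choroid plexus, stood at 2413, 2465 and 2231 in the striatum-rich libraries, against 2162, 3755 and 5265 in the other 17.

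The remaining lists had few genes clear of the 17. The olfactory bulb list had a median difference of 2.09 in HT female 1, −2.89 in WT female 2 and −1.44 in WT male 2, so the 3 libraries differed widely in bulb genes. Of 14 activity-regulated genes, 11 were above their group medians in all 3 libraries, against 3102 of 17781 genes. Above all 17 lay 0 of the 14, against 1.56% of all genes. The list's median difference was 0.19, 0.59 and 0.50 in the 3 libraries. Cortical projection neuron genes gave 0 of 5 above or below all 17, against 1.56% above and 0.72% below among all genes. Cortical interneuron genes had a median difference of −0.05, −0.14 and −0.08 in the 3. Vip, an interneuron peptide gene, lay below all 17, at 867, 855 and 829 in the striatum-rich libraries against 888 or more in the other 17.

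**Figure D3:**
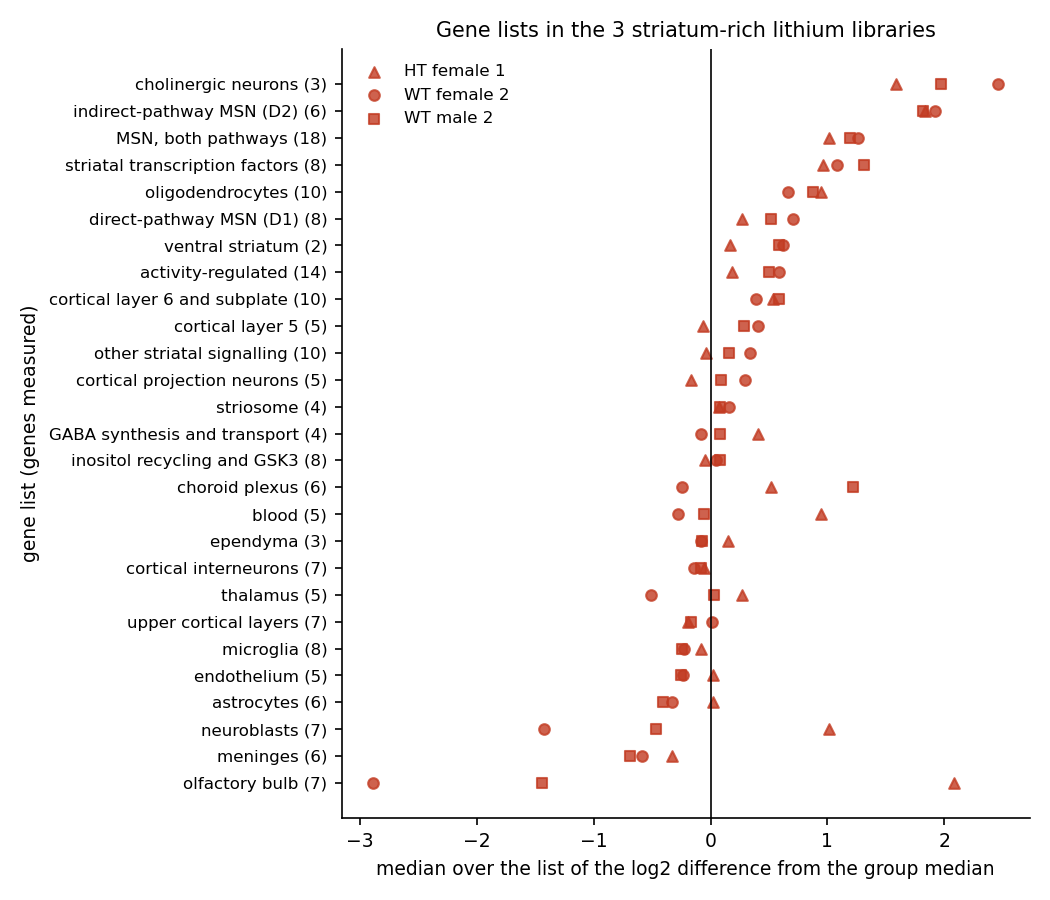
Median over each of 27 gene lists of the log2 difference from the group median (horizontal axis), for HT female 1 (triangles), WT female 2 (circles) and WT male 2 (squares), with the number of genes measured in parentheses. Cholinergic, MSN and oligodendrocyte lists are positive in all 3 libraries, meningeal genes are negative in all 3, and olfactory bulb genes range from −2.89 to 2.09.

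The excess was compared gene by gene between the 3 libraries. Only genes that lay above all 17 entered the comparison, and the MSN genes among them include Ppp1r1b and Pde10a. That choice favours smaller excesses in libraries outside the 3, such as HT vehicle males 4 and 5. On the linear scale, the excess of 17 MSN genes over the group median in HT female 1 was 0.854 times that in WT female 2 at the median, and in WT male 2 it was 0.845 times. Over single MSN genes the ratio ran from 0.199 to 1.99 in HT female 1 and from 0.602 to 1.52 in WT male 2. For the 3 separated direct-pathway genes it was 0.636 in HT female 1 and 0.953 in WT male 2 at the median, and for the 3 cholinergic genes 0.676 and 0.816. For the 5 separated indirect-pathway genes, these ratios were 0.982 in HT female 1 and 0.887 in WT male 2. For 10 oligodendrocyte genes they were 1.29 and 1.14, in the same order. HT vehicle males 4 and 5 had smaller excesses of MSN genes, at 0.578 and 0.424 times that in WT female 2, but excesses of oligodendrocyte genes of 1.11 and 1.88 times. The ratio of striatal to oligodendrocyte excess thus differed between libraries. These 2 vehicle libraries also read the genes that are near silent in cortex, with Six3 at 142 and 151 and Isl1 at 52.6 and 32.1. Both genes passed the filter only through such high libraries, so these values are no support. In the other 38 vehicle and fluoxetine libraries Six3 reached 44.9 and Isl1 13.9. Drd2 was at 391 and 410 in HT vehicle males 4 and 5, and at 16.7 to 124 in the other 38.

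To ask which genes follow the striatal index in libraries that did not choose the set, each gene was regressed on the index in the 40 vehicle and fluoxetine libraries. The model held group means and the olfactory bulb level, and was fitted with limma across 17590 genes with the 2 index genes left out of counts. It called 20 genes (0.114%) at a Benjamini-Hochberg adjusted p below 0.05, all with a positive slope, and 19 of the 20 had also been above all 17 in the 3 lithium libraries. The slope is in log2 units per log2 unit of the index. Adora2a had a slope of 2.06 (SE 0.20, adjusted p = 2.79e-08), Drd2 of 2.15 (SE 0.32, adjusted p = 0.000185) and Gpr6 of 1.62 (SE 0.23, adjusted p = 0.000119). Rgs9 had a slope of 1.36 (SE 0.18, adjusted p = 3.04e-05) and Drd1 one of 1.23 (SE 0.24, adjusted p = 0.0129). Slopes above 1 mean that these genes rose more steeply than the mean of Ppp1r1b and Pde10a. Penk (0.79), Tac1 (0.82), Zfp503 (0.87) and Rxrg (0.68) were called as well. Adcy5 (0.39) and Pde1b (0.40), both high in cortex, had shallow slopes that were called too.

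By list, the calls took 4 of 6 indirect-pathway genes, 4 of 15 tested MSN genes, 2 of 8 direct-pathway genes, 2 of 7 striatal transcription factors, 1 of 10 other striatal signalling genes (Pde7b) and 1 of 10 layer 6 genes (Foxp2). All 15 MSN genes had a positive slope, against 8508 of 17590 genes overall. Cd4, the helper T cell co-receptor gene, and Serpina9, a serine protease inhibitor gene, were also called, and are named after their values were seen. Cd4 had a slope of 1.67 and stood at 211, 157 and 194 in the striatum-rich lithium libraries, against 14.1, 21.1 and 35.3 in the other 17. Serpina9 had a slope of 2.85 and stood at 150, 185 and 167 in the striatum-rich lithium libraries, against 3.29, 7.47 and 42.0 in the other 17. No oligodendrocyte gene was called, of 10 tested, with a median slope of 0.33 and 10 of 10 positive. The activity-regulated genes, mostly above their group medians in the 3 lithium libraries, had 0 of 14 positive slopes (median −0.57), and none was called.

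The calls of this regression rest on few libraries. Without HT vehicle males 4 and 5 no gene was called by limma, with the smallest adjusted p at 0.787, although all 20 slopes stayed positive at 0.14 to 1.15. Adora2a then had 1.15, Gpr6 0.80, Drd1 0.64, Drd2 0.61 and Rgs9 0.34. With HT vehicle males 4 and 5 kept but the olfactory bulb covariates left out, 8611 genes were called. Leaving out 1 library also ended the call of Drd1, for HT vehicle female 5 and for HT vehicle males 2, 3, 4 and 5 in turn, with an adjusted p of up to 0.503, while its slope stayed at 1.08 to 1.36. The calls of Adora2a, Drd2, Gpr6 and Rgs9 held when any 1 library was left out.

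**Figure D4:**
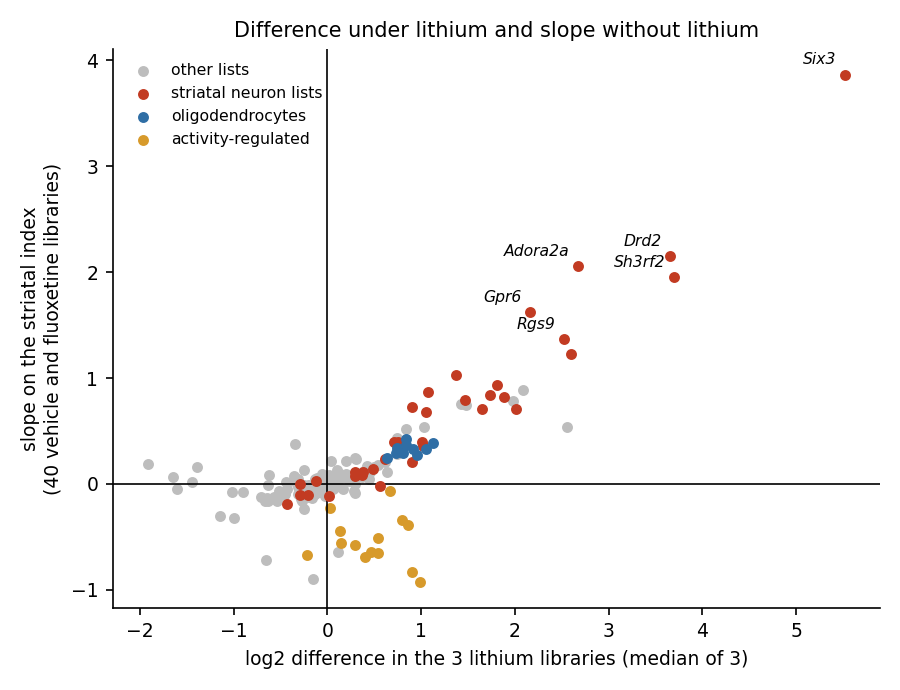
For genes of the lists other than the index genes, the median log2 difference in the 3 striatum-rich lithium libraries (horizontal axis) against the slope on the striatal index in the 40 vehicle and fluoxetine libraries (vertical axis). Drd2, Adora2a, Gpr6 and Rgs9 lie at the upper right, oligodendrocyte genes form a cluster at slopes near 0.33, and activity-regulated genes lie below 0.

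Of the 3 libraries, 1 falls in the 10 HT lithium libraries and 2 in the 10 WT lithium libraries. For HT against WT under lithium, limma called 1 gene of 17781 (0.00562%), Plcxd2, which encodes a phospholipase C-like protein. Plcxd2 was at 3852, 4711 and 5375 in HT lithium libraries (lowest, median and highest), against 3011, 3513 and 4421 in WT lithium libraries, a log2 fold change of 0.36 (SE 0.06, adjusted p = 0.0087, n = 10 each). The ranges overlapped. Without the 3 striatum-rich libraries no gene passed (0%), and Plcxd2 had a change of 0.36 (adjusted p = 0.0700), while genes at an unadjusted p under 0.05 numbered 2122 instead of 1489. Over its alternatives the change of Plcxd2 stayed at 0.33 to 0.36. With all libraries DESeq2 called 2 genes and edgeR 1.

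None of the 18 MSN genes was called between the genotypes, and their median change was −0.05 with all libraries and 0.09 over the 17 tested without the 3. The indirect-pathway list had a median of −0.28 with all libraries and −0.04 without the 3. Drd2 itself had a fold change of −0.28 (adjusted p = 0.856) with all libraries and 0.09 (SE 0.34, adjusted p = 0.916) without the 3. Its sign turned, but it was called in neither fit. Leaving out WT female 2 alone, or WT male 2 alone, also turned it. Tbr1 had a change of 0.47 (adjusted p = 0.522) with all libraries and 0.56 (adjusted p = 0.306) without the 3. The olfactory bulb covariates were added to the contrasts after the data had been seen. With them Tbr1 was called, at 0.32 (adjusted p = 0.000175) with all libraries and 0.30 (adjusted p = 0.0133) without the 3. With the striatal index and the bulb covariates it was called at 0.33 (adjusted p = 0.000166).

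Lithium against vehicle in WT mice gave many calls, with 3873 genes higher (21.8%) and 3712 lower (20.9%). Without the 3 libraries there were 3187 higher (17.9%) and 3012 lower (17%). The 2 sets shared 6002 genes, which were 79.1% of the first and 96.8% of the second, from fits that share most libraries. An earlier analysis of these data placed the vehicle males together, apart from the other libraries, and for males lithium and that separation cannot be told apart. The female contrasts are therefore given below.

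In WT mice, 11 of 18 MSN genes rose under lithium with all libraries, against 21.8% of all genes, and none fell. The list's median change was 0.53. Without the 3 libraries, 6 of 17 rose, Ppp1r1b among them, against 17.9% of all genes, and the median was 0.27. Ppp1r1b and Pde10a chose the libraries left out, so a call of either without the 3 is no support. Their own changes without the 3 are given with no test. Ppp1r1b was at 942, 1902 and 5643 in WT lithium libraries, against 487, 1016 and 1494 in WT vehicle libraries. Without the 2 striatum-rich ones the WT lithium libraries reached 2190, still past the highest vehicle library. Its fold change was 1.01 (SE 0.27, adjusted p = 0.0026) with all libraries and 0.65 without the 3. Pde10a was at 1387, 1601 and 6797 in WT lithium libraries, against 962, 1724 and 1859 in WT vehicle libraries. Its change was 0.40 (adjusted p = 0.145) with all libraries and 0.0034 without the 3. With the olfactory bulb covariates the change of Ppp1r1b was 0.46 and its call was lost (adjusted p = 0.0709).

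Adcy5, Gng7, Rasd2, Ptpn5 and Dclk3 rose in both fits. Adcy5 changed by 0.58 (adjusted p = 0.000123) with all libraries and 0.41 (adjusted p = 0.0013) without the 3, and Gng7, a G protein subunit gene, by 0.83 and 0.61. The calls of Scn4b, Lrrc10b, Pde1b and Gnal, which encodes the striatal G protein alpha subunit, were among those lost. Scn4b was at 277, 1243 and 4921 in WT lithium libraries, against 74.1, 651 and 1226 in WT vehicle libraries, and its change was 1.43 (adjusted p = 0.018) with all libraries and 0.92 (adjusted p = 0.136) without the 3. Leaving out 1 library, WT lithium female 2, WT lithium male 2 or WT vehicle male 4, also ended the call of Scn4b, with an adjusted p of at most 0.066. WT vehicle male 4 had the lowest mean of the MSN list in its group, at 8.45 log2 units, with the next at 9.08. Its part in the median rise of the list was not tested.

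Genes of the separate pathways differed in how far they depended on the 3 libraries. The 3 were chosen by striatal markers, so smaller changes of such genes without them follow in part from that choice. Drd1 was at 84.6, 193 and 1049 in WT lithium libraries, against 58.7, 129 and 246 in WT vehicle libraries. Its change was 1.01 (adjusted p = 0.038) with all libraries and 0.47 (adjusted p = 0.294) without the 3, and leaving out any of 8 single libraries, WT lithium females 2 and 5 and WT lithium male 2 among them, ended the call. Drd2 was at 27.8, 50.9 and 603 in WT lithium libraries, against 28.2, 44.5 and 65.9 in WT vehicle libraries. Its change was 0.67 (adjusted p = 0.238) with all libraries and −0.05 (adjusted p = 0.919) without the 3. Adora2a had 0.40 and then −0.13 without the 3. Neither was called in either of these fits. Count tests on the recovered reads did call Drd2 with all libraries, at 1.63 by edgeR (adjusted p = 0.00998) and 1.65 by DESeq2 (adjusted p = 0.0034), and Pde10a at 0.66 (adjusted p = 0.026) and 0.67 (adjusted p = 0.019). Over its alternatives, the change of Drd2 ranged from −0.43 to 1.65 and that of Pde10a, which is part of the index, reached 0.67. In the direct pathway Pdyn rose in both fits (0.76 and 0.64), as did the cholinergic genes Chat (1.65 and 1.17) and Slc18a3 (1.28 and 0.91). Ecel1, with 0.87 (adjusted p = 0.015) and then 0.42 (adjusted p = 0.163), and the retinoid receptor gene Rxrg, with 0.39 (adjusted p = 0.029) and then 0.18 (adjusted p = 0.257), lost their calls. The call of Ecel1 was also lost without WT lithium female 2 or WT lithium male 2 alone, at an adjusted p of up to 0.0613.

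Standard errors show the same dependence. That of Drd2 was 0.46 with all libraries and 0.33 without the 3. All groups share 1 estimate of spread, so it enters the error of each contrast. Foxp2 fell by 0.42 in WT without the 3 libraries (adjusted p = 0.0299), and had a change of −0.21 (adjusted p = 0.362) with all libraries.

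Outside the striatal lists, Thbs4, Kirrel2, Atf3, Fosb and F13a1 kept their direction in WT, and directions over all such genes were not counted. Thbs4, a thrombospondin gene, had 1.66 with all libraries and 1.44 without the 3, and Kirrel2, a cell adhesion gene, 1.06 and 1.03, both rising in both fits. Atf3, a stress-induced transcription factor gene, fell by 1.90 with all libraries and fell by 1.85 without the 3. Fosb, an activity-regulated gene, fell by 1.25 with all libraries and fell by 1.30 without the 3. Of 14 activity-regulated genes, 12 fell with all libraries and 13 without the 3, against 20.9% and 17% of all genes. None of these 14 was called in WT females alone, where limma called only Nkd1. Of 10 oligodendrocyte genes none was called in either fit, although the list's median change was 0.17 with all libraries and −0.02 without the 3. F13a1, low in the striatum-rich libraries, had a change of 0.21 with all libraries and rose by 0.50 (adjusted p = 0.015) without the 3.

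In HT mice, lithium against vehicle gave 2241 genes higher (12.6%) and 1887 lower (10.6%) with all libraries. Without the 3 libraries there were 2091 higher (11.8%) and 1692 lower (9.52%), and 3632 genes were shared, 88.0% of the first set and 96.0% of the second. Here 1 striatum-rich library stood on the lithium side and HT vehicle males 4 and 5 on the other. Pde10a was at 1454, 1942 and 6429 in HT lithium libraries, against 1270, 2403 and 5290 in HT vehicle libraries. Its change was −0.27 (adjusted p = 0.428) with all libraries, −0.45 without the 3 libraries and −0.25 without these and HT vehicle males 4 and 5, the last 2 values with no test since Pde10a chose the libraries. Rgs9 had −0.41 (adjusted p = 0.349), −0.65 (adjusted p = 0.014) and −0.22 (adjusted p = 0.252) in the same fits. Of these 3 fits, Rgs9 was called in the one that removed high libraries from the lithium side alone.

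Of the MSN genes in HT mice, 0 of 18 were called with all libraries, 2 of 17 fell without the 3, and 2 of 17 rose without all 5 libraries. These counts are near the shares of all genes, 9.52% lower without the 3 and 10.1% higher without the 5. The 2 lower ones were Pde10a and Rgs9, and Pde10a chose the libraries left out, so its call is no support. The 2 that rose were Pde1b, by 0.14 (adjusted p = 0.00046), and Rasd2, a striatal small GTPase gene, by 0.28 (adjusted p = 0.0037). Drd2 had −0.33 with all libraries, −0.68 (adjusted p = 0.124) without the 3 and 0.0049 (adjusted p = 0.992) without all 5. Activity-regulated genes gave 3 of 14 lower with all libraries, 3 without the 3 and 8 without all 5. The shares of all genes that were lower in these fits were 10.6%, 9.52% and 8.13%. Outside these lists, Cited4, a transcriptional coactivator gene, rose in all 3 fits, by 0.64, 0.64 and 0.68. Whether lithium differed in its effect on MSN genes between HT and WT was not tested.

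**Figure D5:**
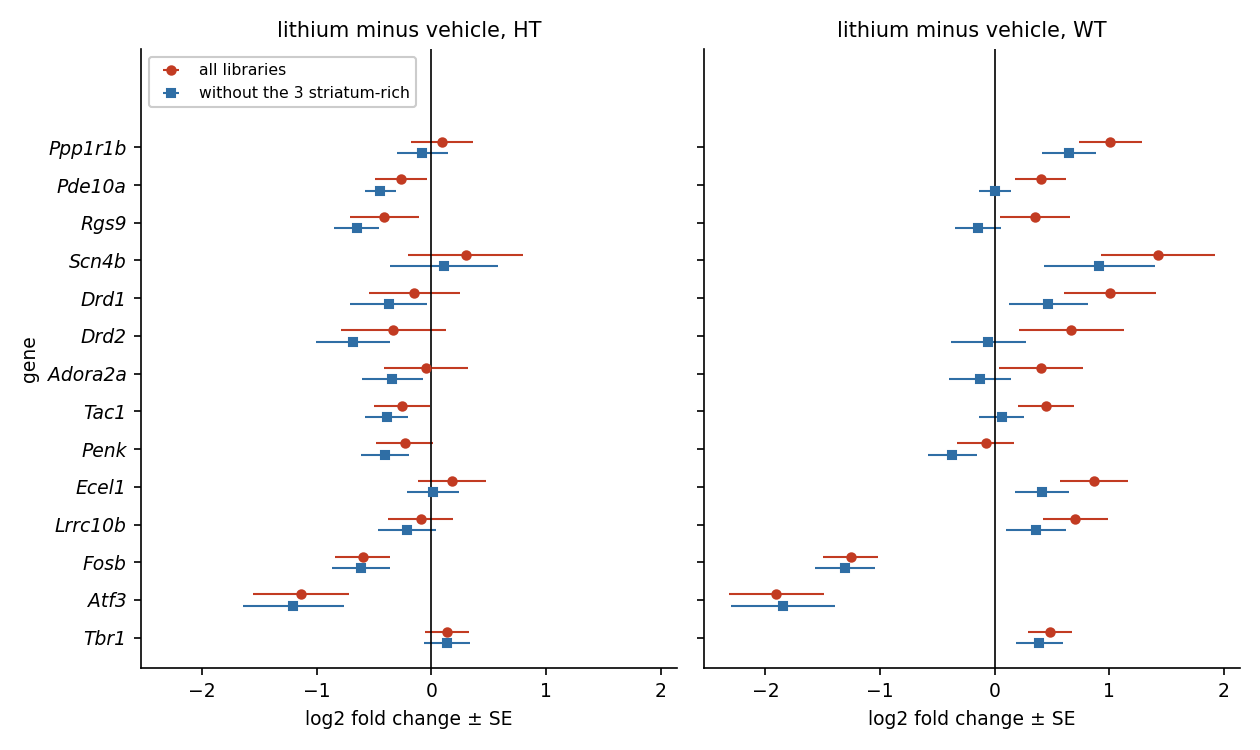
Log2 fold change of lithium minus vehicle with its standard error for 14 genes, in HT (left) and WT (right), with all libraries (red circles) and without the 3 striatum-rich libraries (blue squares). In WT the blue squares of Drd2 and Pde10a sit at −0.05 and 0.0034, against 0.67 and 0.40 for the red circles, while Fosb and Atf3 hardly differ between fits.

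In HT females alone, lithium against vehicle called 3 genes (0.0169%), Castor2, a sensor of arginine, Stk4, a kinase of the Hippo pathway, and Zfp322a, a zinc finger gene. The same 3 passed without the striatum-rich libraries (0.0169%). Castor2 was at 5688, 6334 and 6659 in HT lithium females, against 4572, 4837 and 5253 in HT vehicle females, which did not overlap, and rose by 0.34 (adjusted p = 0.0024). The median change of the MSN list was 0.29 with all libraries and 0.04 without the 3. Castor2 kept its call when any 1 library was left out, and Stk4 and Zfp322a each lost theirs for 8 of the single libraries, with adjusted p-values of up to 0.342. In WT females, 1 gene was called (0.00562%), Nkd1, an inhibitor of Wnt signalling. Nkd1 was at 475, 556 and 623 in WT lithium females, against 683, 731 and 776 in WT vehicle females, and fell by 0.41 (SE 0.07, adjusted p = 0.024). Leaving out any of 7 single libraries, WT lithium females 2, 4 and 5 among them, ended this call, with adjusted p-values of up to 0.167, while its change stayed at −0.35 to −0.45. Without the 3 libraries no gene passed limma (0%), the smallest adjusted p was 0.108, and genes at an unadjusted p under 0.05 numbered 1177 instead of 2012. With all libraries DESeq2 called 38 genes, edgeR 1 and limma with library quality weights 3283, and leaving out WT lithium female 3 gave 49. None of the MSN genes was called in WT females, and the list's median change was 0.33 with all libraries and 0.09 without the 3.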

How the data were processed

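The authors deposited a normalized signal for each gene in each library, a read number over that library's size factor. The submitters' processing notes list Salmon 0.11.2, R 3.6.0, DESeq2 1.19.11 and GRCm38 without saying what each did, and libraries came from a stranded mRNA kit per the labels. The low values gave whole reads for 100% of values at a tolerance of 1e-06, with 23930164 to 36515331 reads per library. Of 18088 identifiers, 18077 had a symbol, 11 had none and 20 symbols were shared. Coordinates are from GENCODE for GRCm38. The 17781 genes that reached 10 in 5 or more libraries were kept. Because the values are normalized, limma 3.58.1 in R 4.3.3 replaced the count test, on log2(value + 1), with all 60 libraries, group means and a trended variance. Tests are two-sided, and p-values were adjusted by Benjamini-Hochberg over all genes within a contrast. Fold changes on this scale understate those of low genes. Sexes were averaged unless stated. The slope model added the striatal index and the mean of the olfactory bulb list on log2 and linear scales. On the recovered reads, edgeR 4.0.16 called 7550 genes for lithium in WT and 4168 in HT, and DESeq2 1.42.0 called 7605 and 4348.

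The 3 libraries, the gene lists and the tests were chosen with earlier results of these data known. Named genes were Ppp1r1b, Pde10a and Tbr1, the 20 highest and 10 lowest genes of the 3 libraries (same sign in all 3, mean of at least 50), list members, and for each contrast the 5 called genes with the largest change each way and those whose call changed without the 3 libraries. A gene named outside this rule is said to be so. The rule takes further genes that are not reported here. Chi-square over its degrees of freedom was at least 2.99 in each of the 120 within-group pairs, so no library was treated as a repeat of another. The procedure was tested on simulated data.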

Additional observations from a re-analysis of the deposited data

Results flagged for a closer look

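In groups of 5 libraries, the highest or lowest library was compared with its nearest neighbour by Dixon's ratio for list means and the striatal index, in log2 units. Of 84 groups examined 15 passed the critical value. Of these, 8 are the striatum-rich libraries, which were chosen for such values, so the share that chance passes, about 1 in 20, bears on the other 7 alone. They are given as values only.

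Most were the striatum-rich libraries themselves. WT lithium male 2 stood at 12.44 on the striatal index, with the next at 10.88. The mean of the MSN list was 10.86 in HT lithium female 1 (next 9.72), 10.91 in WT lithium female 2 (next 9.59) and 10.89 in WT lithium male 2 (next 9.54). The direct-pathway mean was 9.07 in WT lithium female 2 (next 8.39) and 8.98 in WT lithium male 2 (next 8.33). The indirect-pathway mean was 9.47 in WT lithium female 2 (next 7.93) and 9.40 in WT lithium male 2 (next 7.83).

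Others were low. WT vehicle male 4 had an MSN mean of 8.45 (next 9.08) and a direct-pathway mean of 8.03 (next 8.30). HT lithium male 3 had the lowest direct-pathway mean at 7.72 (next 8.24), layer 6 mean at 8.37 (next 9.33) and olfactory bulb mean at 3.27 (next 8.35) of its group. The oligodendrocyte mean was lowest in HT fluoxetine male 2 at 11.48 (next 12.01) and in WT vehicle male 2 at 10.90 (next 11.99).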

How the results depend on the processing

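Over all single genes named and alternatives other than leaving out 1 library, 766 values kept their direction and side of the threshold, 41 gained a call, 102 lost one and 42 turned sign. When 1 library was left out at a time, these numbers were 1279, 5, 167 and 9. The covariates for the olfactory bulb list were added to the contrasts after the data had been seen. Where a value moved, the cause was not tested. Ppp1r1b and Pde10a make up the index and chose the 3 libraries, so their values below without those libraries or with the index as covariate follow from that choice in part.

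Same-numbered replicates deviated together above a correlation of 0.1 in 25 of 80 pairs (−0.47 to 0.62). Differently numbered libraries were not compared, so these values cannot show whether the numbers pair the libraries. The main fits treated the libraries as unpaired. With a replicate block, lithium in HT females called 1 gene instead of 3, and the other contrasts 1 (HT against WT under lithium), 7611 (lithium in WT), 4128 (HT), 1 (WT females) and 16 (slope).

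For HT against WT under lithium (1 gene), DESeq2 called 2, quality weights 5, the index covariate 2, index and bulb covariates 3, and bulb covariates 7, or 3 without the 3 libraries. Without the 3 libraries, or these and HT vehicle males 4 and 5, 0 passed. Leaving out 1 library gave 1 to 5. Drd2 turned to 0.047 with quality weights, 0.086 without the 3 or the 5, 0.16 with index and bulb covariates, 0.098 with bulb covariates without the 3, and 0.064 and 0.089 without WT lithium female 2 or male 2, in a leave-one-out range of −0.64 to 0.089. Ppp1r1b turned to 0.034 without the 3 or the 5, and to 0.042 and 0.011 without these 2 libraries singly, in a range of −0.33 to 0.042.

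For lithium in WT (7585), the index covariate gave 4672, and leaving out 1 library 6303 to 8147. Dach1 turned to 0.051 with edgeR, 0.062 with DESeq2 and 0.014 without WT lithium male 4 (leave-one-out range −0.27 to 0.014). Without the 3 or the 5, Adora2a was −0.13 and Drd2 −0.052. With the index covariate Drd1 was −0.063, Adora2a −0.31, Pde10a −0.23 and Drd2 −0.43. With index and bulb covariates Scn4b was −0.064, Drd1 −0.17, Lrrc10b −0.021, Adora2a −0.020, Pde10a −0.17, Drd2 −0.21 and Tbr1 −0.047. With bulb covariates Tbr1 was −0.039, and without the 3 as well Drd1 was −0.078, Pde10a −0.12, Drd2 −0.092 and Tbr1 −0.028.

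For lithium in HT (4128), leaving out 1 library gave 3550 to 4699. Ppp1r1b turned to −0.079 without the 3, and so without HT lithium female 1 alone, to −0.052 with bulb covariates, −0.23 with these and without the 3, −0.074 without HT vehicle female 1 and −0.049 without HT vehicle male 2, with leave-one-out values of −0.079 to 0.23. Drd2 was 0.0049 without the 5 libraries and 0.044 with index and bulb covariates. Tbr1 was −0.048 without HT vehicle female 1 (range −0.048 to 0.23).

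For WT females (1), DESeq2 called 38, quality weights 3283, index and bulb covariates 9 and bulb covariates 11. Without the 3, without the 5, with the index covariate, or with bulb covariates without the 3, 0 passed. Leaving out 1 library gave 0 to 49, with 49 without WT lithium female 3 and 0 without WT lithium females 2, 4 or 5 or WT vehicle females 1, 3 or 5. Tbr1 turned to −0.13 with index and bulb or bulb covariates and −0.10 with bulb covariates without the 3. For HT females (3), quantile normalization called 1, DESeq2 7, index and bulb covariates 5 and bulb covariates without the 3 called 8. Leaving out 1 library gave 1 to 4, with 1 without HT lithium females 2, 3, 4 or 5 or HT vehicle females 2 or 3. Tbr1 turned to −0.021, −0.020 and −0.031 with index and bulb covariates, bulb covariates, and bulb covariates without the 3.

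For the slope (20), a mean of at least 100 left 13, DESeq2 called 33, quality weights 35, an index of the MSN list 47, no bulb covariates 8611, and females only, or no HT vehicle males 4 and 5, gave 0. Leaving out 1 library gave 6 to 26, with 13 without HT vehicle female 5 or male 2, 11 without male 3, 6 without male 4 and 10 without male 5. Without bulb covariates Ccdc187 was −0.058 and Penk −0.38. Taking 2 of the 3 striatum-rich libraries, 385, 256 and 214 genes lay below the 17 when HT female 1, WT female 2 or WT male 2 was left out, and 554 lay above without HT female 1.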
